A study of Mus musculus with 28 samples.

Results

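Accessible chromatin was examined at 40 genes of oxygen sensing and blood vessel growth in Müller cells, the main glia of the retina, from control and diabetic mice. The genes were taken by name, as a list drawn up with earlier results of these data known, and all 40 were found among the 21938 protein-coding genes of the annotation. They comprise 15 genes of oxygen sensing and the hypoxia response, 20 angiogenic genes (secreted factors and their receptors) and 5 antiangiogenic factors. An accessible region was counted for a gene when it overlapped the gene or the 5 kb to either side, which gave 95 of the 46189 regions in control cells and 151 of the 64883 regions in db/db cells.

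Accessibility was measured with the omni-ATAC variant of ATAC-seq, where a transposase cuts and tags DNA wherever chromatin is open. Controls are labelled WT (the methods of the study count db/+ heterozygotes among controls as well), and db/db mice are homozygous for the db allele of Lepr, which encodes the leptin receptor, on the BKS background, and develop type 2 diabetes. Both groups were 6 months old and had their Müller cells purified from retina by magnetic sorting as the CD29+ fraction left after removal of CD11b+ and CD31+ cells, a fraction that can hold some astrocytes. Lepr is mutated in the whole animal and not in Müller cells alone. The labels give 2 replicates per genotype, and the data used here are 1 list of accessible regions per genotype, attached to replicate 1 of each. There is thus no replicate check and no p-value between genotypes. Read depth is unknown. Depth and genotype cannot be told apart as sources of the longer list in db/db cells, and fewer cells with an open region cannot be told apart from a region that is less open in each cell.

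Cells sense oxygen through the hypoxia-inducible factors (HIF), dimers of an oxygen-labile alpha subunit and a stable beta subunit. When oxygen is plentiful, prolyl hydroxylases mark the alpha subunit for VHL-dependent degradation, and when oxygen falls the dimer binds short sites in DNA and activates genes of glycolysis, mitophagy and vessel growth. Müller cells span the retina between vessels and neurons and secrete both vascular growth factors such as VEGF and antiangiogenic proteins such as PEDF, a balance studied in diabetic retinopathy.

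The sorted cells were first checked against marker genes. All 10 Müller markers examined, among them Glul and Rlbp1, had an accessible promoter in both lists, whereas a promoter region was present at 1 of 10 microglial markers and at 3 of 10 endothelial and pericyte markers in either list. Of 5 astrocyte markers, 4 had one in each list. Regions of any kind were more common, since only 3 of 10 microglial markers had none in each list. Of the 10 endothelial and pericyte markers, 3 had no region in the control list and 2 had none in the db/db list. At these vascular markers 11 of 30 db/db regions were absent from the control list (36.7%, against 29.1% over coding genes). Rod photoreceptor markers had an accessible promoter at 8 of 10 genes in the control list and at 7 in the db/db list. Of 32 control regions at rod genes, 16 (50.0%) were absent from the db/db list, against 3.91% over coding genes. Of 22 db/db regions at rod genes, 6 (27.3%) were absent from the control list, near the 29.1% over coding genes. The part of photoreceptor, vascular, microglial or astrocyte chromatin in the results below was not tested.

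The DNA at the promoters shows the sites through which HIF could act, and 9 promoter windows are printed to contrast the oxygen sensing genes with the vascular factors. Each window holds the 250 bases before and the 50 bases after an annotated RefSeq start (GRCm38.p6), written 5′ to 3′ on the strand of the gene. Capitals mark the core of a HIF site, ACGTG or GCGTG, read on both strands, so that the palindrome CACGTG counts as 2 sites. The windows lie at chr12:73907617-73907916 (plus strand) for Hif1a, chr7:27166753-27167052 (minus strand) for Egln2, chr12:54203825-54204124 (minus strand) for Egln3, chr7:138909457-138909756 (minus strand) for Bnip3, chr8:45999801-46000100 (minus strand) for Ankrd37, chr17:46032328-46032627 (minus strand) for Vegfa, chr8:54077282-54077581 (plus strand) for Vegfc, chr1:186705940-186706239 (minus strand) for Tgfb2 and chr5:14025026-14025325 (plus strand) for Sema3e.
Hif1a: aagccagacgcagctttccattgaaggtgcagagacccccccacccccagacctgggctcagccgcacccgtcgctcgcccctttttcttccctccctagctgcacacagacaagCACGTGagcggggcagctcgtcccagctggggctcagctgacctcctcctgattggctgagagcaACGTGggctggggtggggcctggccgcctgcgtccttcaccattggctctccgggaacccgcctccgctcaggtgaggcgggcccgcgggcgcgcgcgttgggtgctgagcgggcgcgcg
Egln2: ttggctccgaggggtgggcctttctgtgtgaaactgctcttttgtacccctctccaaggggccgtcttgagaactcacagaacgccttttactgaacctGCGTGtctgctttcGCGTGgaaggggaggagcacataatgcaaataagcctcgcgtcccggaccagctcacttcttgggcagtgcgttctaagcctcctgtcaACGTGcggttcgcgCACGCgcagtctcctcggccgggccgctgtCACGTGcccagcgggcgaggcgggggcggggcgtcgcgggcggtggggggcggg
Egln3: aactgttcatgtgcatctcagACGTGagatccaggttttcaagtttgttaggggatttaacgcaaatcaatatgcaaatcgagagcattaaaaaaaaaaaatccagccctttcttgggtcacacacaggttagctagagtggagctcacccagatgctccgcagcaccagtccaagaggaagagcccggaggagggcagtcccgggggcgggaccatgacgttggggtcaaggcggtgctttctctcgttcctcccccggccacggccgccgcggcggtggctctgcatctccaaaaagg
Bnip3: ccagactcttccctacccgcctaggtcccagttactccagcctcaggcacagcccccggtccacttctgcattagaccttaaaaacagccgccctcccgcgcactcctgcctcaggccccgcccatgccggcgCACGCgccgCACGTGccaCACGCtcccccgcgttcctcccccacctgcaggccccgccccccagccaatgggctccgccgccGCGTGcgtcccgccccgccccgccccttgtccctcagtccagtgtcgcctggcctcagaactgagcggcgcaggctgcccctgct
Ankrd37: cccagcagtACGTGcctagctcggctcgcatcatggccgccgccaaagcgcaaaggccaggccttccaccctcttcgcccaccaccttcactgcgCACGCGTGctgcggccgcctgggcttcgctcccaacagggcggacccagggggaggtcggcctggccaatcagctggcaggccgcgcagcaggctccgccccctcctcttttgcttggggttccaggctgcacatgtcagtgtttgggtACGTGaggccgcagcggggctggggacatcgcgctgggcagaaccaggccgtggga
Vegfa: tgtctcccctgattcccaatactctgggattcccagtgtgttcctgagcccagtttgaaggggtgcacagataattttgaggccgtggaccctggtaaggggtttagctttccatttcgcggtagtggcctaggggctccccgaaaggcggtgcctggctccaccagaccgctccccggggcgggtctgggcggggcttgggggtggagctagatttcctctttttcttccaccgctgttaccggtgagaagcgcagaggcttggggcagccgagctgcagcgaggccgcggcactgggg
Vegfc: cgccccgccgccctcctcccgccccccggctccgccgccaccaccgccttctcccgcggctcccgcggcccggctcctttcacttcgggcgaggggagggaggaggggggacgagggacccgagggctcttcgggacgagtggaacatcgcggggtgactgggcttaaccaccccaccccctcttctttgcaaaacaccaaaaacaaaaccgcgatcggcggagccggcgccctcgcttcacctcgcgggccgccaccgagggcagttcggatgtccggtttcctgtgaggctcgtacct
Tgfb2: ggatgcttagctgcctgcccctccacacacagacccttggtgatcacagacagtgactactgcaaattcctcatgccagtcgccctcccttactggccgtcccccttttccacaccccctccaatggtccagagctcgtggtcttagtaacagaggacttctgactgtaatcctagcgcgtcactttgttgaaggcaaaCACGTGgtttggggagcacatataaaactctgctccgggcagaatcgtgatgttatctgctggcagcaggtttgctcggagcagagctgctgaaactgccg
Sema3e: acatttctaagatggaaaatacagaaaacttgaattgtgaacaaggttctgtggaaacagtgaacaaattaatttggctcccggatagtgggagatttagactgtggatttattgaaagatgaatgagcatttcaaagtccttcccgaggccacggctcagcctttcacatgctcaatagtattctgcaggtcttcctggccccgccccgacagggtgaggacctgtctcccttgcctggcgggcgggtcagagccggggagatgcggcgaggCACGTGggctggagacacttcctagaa

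The number of site cores varied within each class. The Egln2 window held 6, that of Bnip3 held 5, that of Ankrd37 held 4 and that of Hif1a held 3, while Egln3 had 1 and Tgfb2 and Sema3e had 2 each, in both cases the 2 strands of 1 palindrome. Windows without a core were also found among oxygen sensing genes, at Arnt2, Vhl and Hif1an, and angiogenic windows of Vegfb, Nrp2 and Tgfbr1 held 2 cores. The windows of Vegfa and Vegfc shown here held none, which says only that these letters are not within these 300 bases. RefSeq windows were available for 31 members, 36 windows in all, and 25 of them held at least 1 core (69.4%, 95% Wilson interval 53.1% to 82.0%). The share over all 20150 windows of coding genes was 50.4%. Of the 24 member windows that lay in an accessible region of the control list, 19 held a core (79.2%, 59.5% to 90.8%), beside 66.4% of the 11164 such windows of coding genes, a value within that interval. By class, a core was found in 10 of 13 windows of oxygen sensing genes, in 13 of 19 angiogenic windows and in 2 of 4 antiangiogenic windows, with intervals that overlap (49.7% to 91.8% for oxygen sensing genes and 46.0% to 84.6% for angiogenic genes), against 21 of 29 windows of 17 other hypoxia-induced genes that are not members. With ACGTG alone the shares were 36.1% for members and 21.1% for all coding windows. By class it was found in 7 of 13 oxygen sensing windows (53.8%), 4 of 19 angiogenic windows (21.1%) and 2 of 4 antiangiogenic windows. Member windows were also richer in G and C, with a median of 63.3% against 57.0% over all coding windows. They held a median of 19 CG pairs against 14, and each core contains such a pair. A further window of Vegfa, at an inner start that lay in no accessible region, held 2 cores. A match of 5 letters is a description of the sequence and does not show that HIF binds there.

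Promoters were the next step, and here the classes stood apart. A promoter region is one within 1 kb of any annotated transcription start of the gene, and its strength is given as the percentile of its signal (the fold enrichment reported for the peak) among all regions of the same list. In the control list 29 of 40 members had a promoter region and in the db/db list 34, against 59.4% and 62.5% of all coding genes. Oxygen sensing genes had one in 14 of 15 cases in both lists, with a median percentile of the strongest promoter of 76.7 in each, close to the medians of 78.0 and 80.7 over coding genes. Angiogenic genes had one in 14 of 20 cases in the control list and 16 in the db/db list, and their median was 27.9 and 33.7. A low rank by signal was not particular to them. The 10 Müller markers had medians of 32.3 in the control list and 48.1 in the db/db list, and the astrocyte markers 34.8 and 44.3. Of the 5 antiangiogenic genes, 1 had a promoter region in the control list (Sema3e) and 4 in the db/db list, with a median of 46.3.

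The low rank of the angiogenic promoters depended in part on the measure. When the strongest promoter was ranked by the −log10 p of its peak instead of the signal, the angiogenic medians were 52.4 in the control list and 66.6 in the db/db list, more than 1.5 times the values by signal. By that measure the medians over coding genes were 83.8 and 85.5 and those of oxygen sensing genes 83.6 and 90.5, so the angiogenic genes stayed below both. The largest such difference in the control list was at Vegfa, from percentile 29.2 by signal to 84.2 by −log10 p in the control list. No test of these class differences was made.

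**Figure D1:**
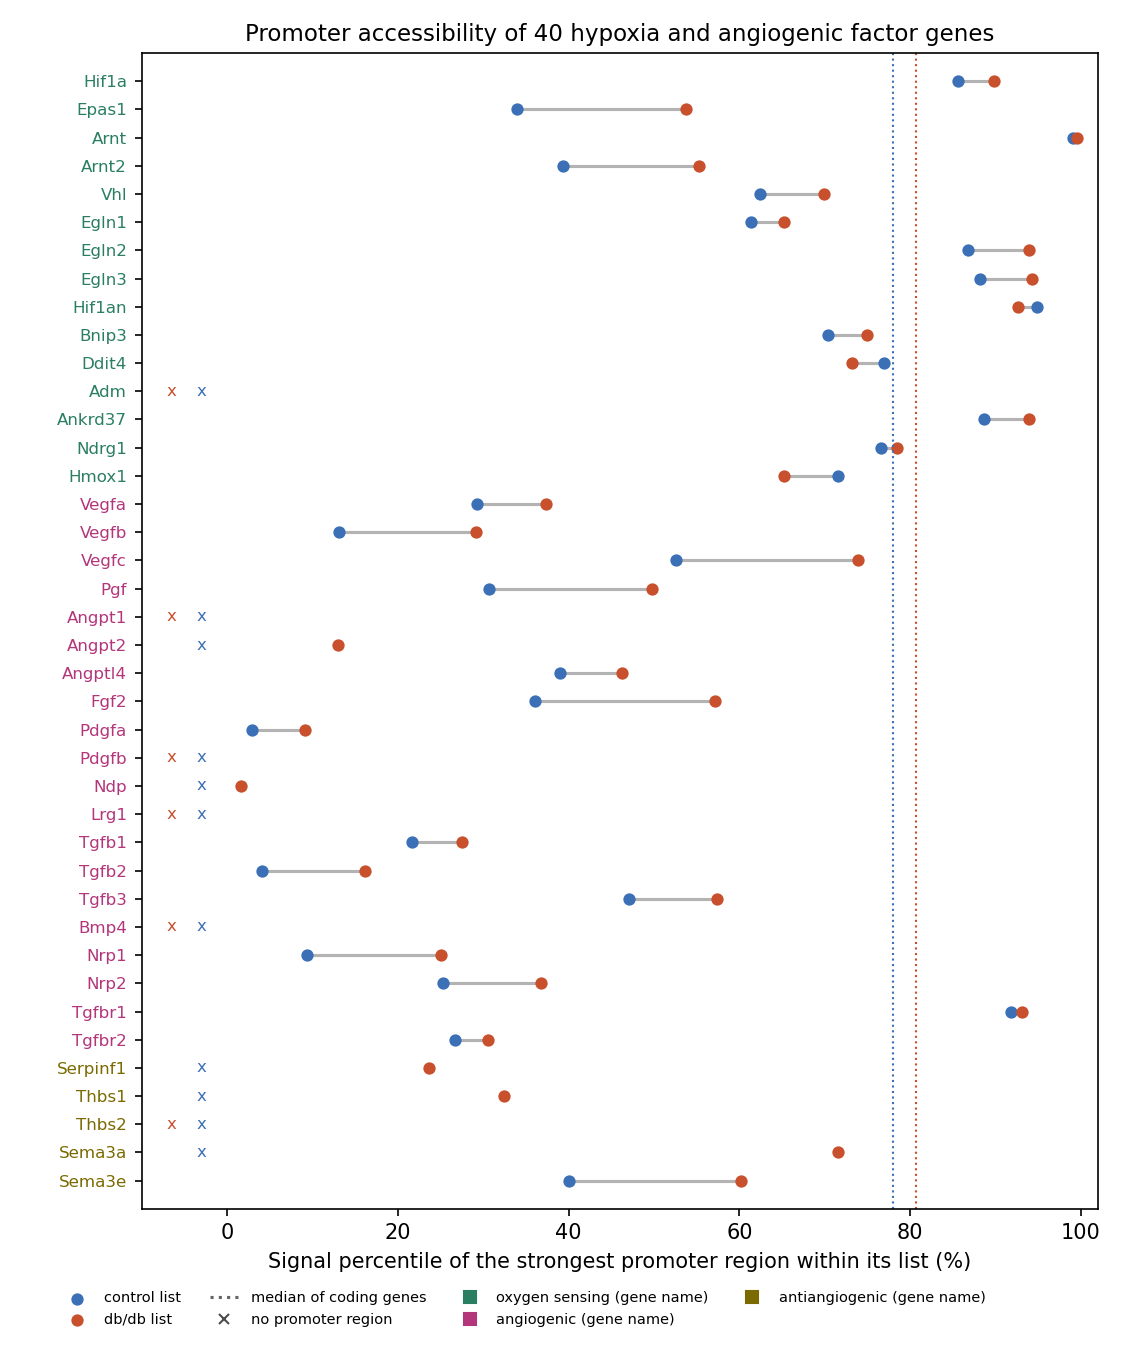
Signal percentile (x axis, in percent) of the strongest promoter region of each of the 40 genes (y axis, name coloured by class) in the control list (blue) and the db/db list (red), joined by a grey line, with dotted lines at the medians of coding genes and crosses where a gene had no promoter region. Oxygen sensing genes lie mostly on the right, with medians of 76.7 in both lists, and angiogenic genes mostly on the left, with medians of 27.9 and 33.7.

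**Figure D2:**
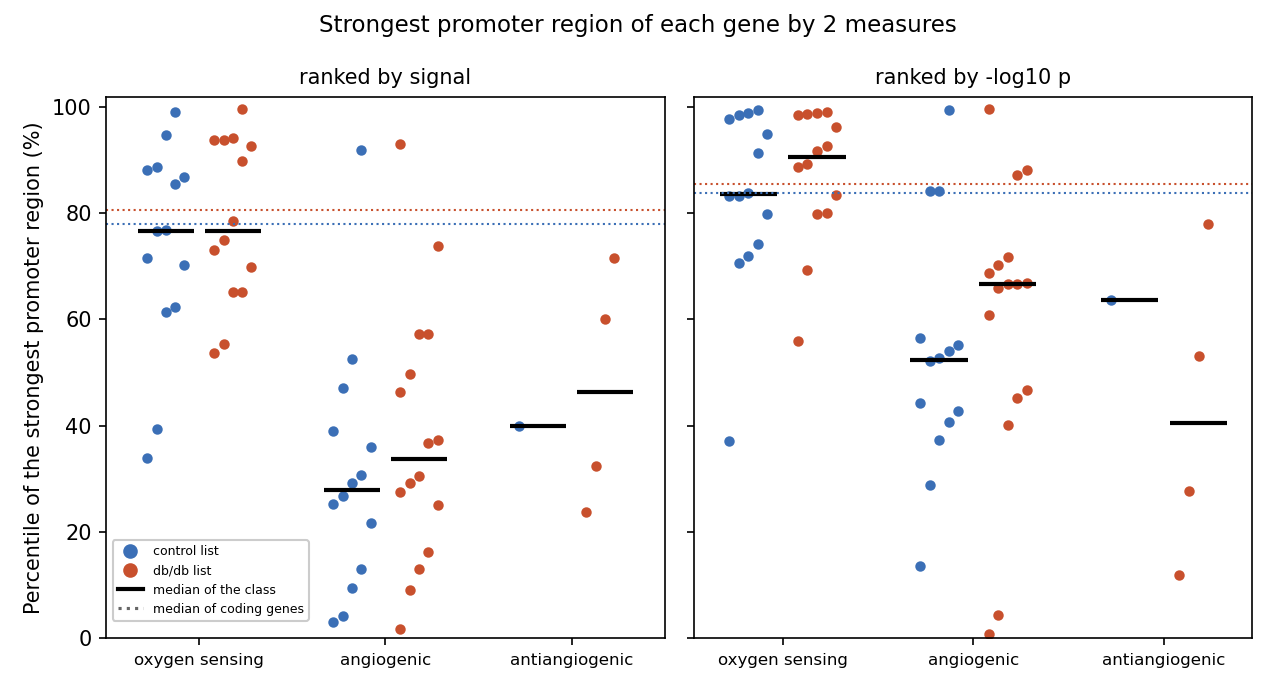
Percentile (y axis, in percent) of the strongest promoter region of each gene by class (x axis), ranked by signal in the left panel and by −log10 p in the right panel, with points for genes, bars for class medians and dotted lines for the medians of coding genes in the control list (blue) and the db/db list (red). The angiogenic medians are 27.9 and 33.7 by signal and 52.4 and 66.6 by −log10 p, under the dotted lines by either measure.

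Percentiles in the whole list are not a measure of change between genotypes. The db/db list is longer and its added regions are mostly weak, so a region present in both lists ranks higher there by construction, by a median of 7.94 points over regions of coding genes with 1 partner in the other list. Changes are therefore given as ranks among partnered regions, those that overlap exactly 1 region of the other list.

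The HIF subunits ranged from the top of the lists to the lower middle. Arnt, the ubiquitous beta subunit, had the strongest promoter of all members by signal. Its signal was 26.3 at percentile 99.1 in the control list and 26.0 at percentile 99.6 in the db/db list. Hif1a, the broadly expressed alpha subunit, followed with 85.6 and 89.8. The alternative subunits ranked lower, with Epas1 (HIF-2 alpha) at 33.9 and 53.8 and Arnt2, the neural beta subunit, at 39.3 and 55.3. Epas1 ranked higher by −log10 p, at 83.3 in the control list. Arnt2 was strong away from its promoter, with an intronic region at chr7:84272315-84272780 at percentile 96.8 in the control list and 97.8 in the db/db list. Another intronic region of Arnt2, chr7:84260901-84261879, was found in the control list alone, at percentile 34.8 and with a signal of 8.81.

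Epas1 stood apart among oxygen sensing genes in its distal regions. It held 7 regions in the control list, all shared, and 12 in the db/db list, of which 5 intronic ones had no control counterpart, all at or below percentile 9.74. Among its shared regions, 3 ranked at least 10 points higher in db/db cells. The intronic region chr17:86769705-86770378 went from 26.4 among partnered regions in the control list to 41.1 in the db/db list, the one at chr17:86814387-86814677 from 3.62 to 18.2, and an exonic region near the 3′ end from 11.8 to 23.0. The first of these differences, 14.6 points, was the largest upward one of any member region. No region of Epas1 ranked 10 points lower, and its main promoter differed by 5.08 points. The Hif1a promoter stayed at its rank, with 84.8 and 84.9 among partnered regions, while a region just downstream of Hif1a ranked 11.3 points higher in the db/db list.

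The regulators of HIF had accessible promoters in every case. Vhl, the substrate receptor of the ubiquitin ligase, was at percentile 62.4 in the control list and 69.9 in the db/db list, Egln1, the main prolyl hydroxylase, at 61.3 and 65.2, and Hif1an, the asparaginyl hydroxylase that blocks coactivator binding, at 94.8 and 92.6. Egln3, the hypoxia-inducible hydroxylase, was at 88.2 and 94.2 and carried a second strong region in its intron, at 90.5 and 91.6. Egln2, the remaining hydroxylase, had 2 promoter regions, one at its upstream start and one at an inner start. Its upstream promoter, the one with 6 HIF cores printed above, showed the largest downward difference of all members: the signal was 12.5 in the control list and 9.21 in the db/db list, and the rank among partnered regions was 61.9 and 38.1, a difference of −23.8 points. The inner promoter of Egln2 was at 86.0 and 90.9, a difference of 4.89 points, so the 2 promoters of this gene differed in sign.

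Among the hypoxia-induced genes, Hmox1 and Ddit4 ranked lower by signal in db/db cells. The promoter of Hmox1, which encodes the haem-degrading enzyme haem oxygenase 1, had a signal of 13.9 in the control list and 10.7 in the db/db list, with ranks of 70.1 and 50.6 among partnered regions, a difference of −19.6. The promoter of Ddit4, an inhibitor of mTORC1 signalling, went from 75.7 to 61.2, a difference of −14.5. By −log10 p in the whole list, Hmox1 was at 70.6 in the control list and 69.4 in the db/db list, and Ddit4 at 99.4 and 98.7. Bnip3, a mitophagy receptor, and Ndrg1, a stress-response gene, differed by less than 10 points at their promoters, −5.34 and −6.79, whereas an intronic region of Ndrg1 went from 58.7 to 72.5, 13.8 points higher. Ankrd37, which encodes an ankyrin repeat protein, had a promoter at percentile 88.6 in the control list and 93.9 in the db/db list, a region that also lies at a start of the neighbouring gene Lrp2bp. Upstream of Ankrd37, and likewise at a start of Lrp2bp, the region chr8:46010439-46011206 was found in the db/db list alone, at percentile 59.4 with a signal of 9.80. Adm, which encodes the vasodilator peptide adrenomedullin, had no promoter region in either list and a shared region downstream of the gene at 52.1 and 66.5.

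Over the class, 19 promoter regions of oxygen sensing genes had 1 partner. None ranked at least 10 points higher in the db/db list and 3 (15.8%), those of Egln2, Hmox1 and Ddit4, ranked at least 10 points lower, beside 7.06% higher and 12.7% lower over promoter regions of coding genes. Of its 14 distal regions, 5 ranked at least 10 points higher (35.7%), 3 of them at Epas1, and 1 at least 10 points lower (7.14%), beside 16.1% and 12.3% over distal regions of coding genes. Promoters and distal regions together gave 5 of 33 higher (15.2%) and 4 lower (12.1%), near the 12.1% and 12.4% of all coding gene regions with 1 partner that differed as much in these directions.

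The VEGF family was of middle to low rank by signal. Vegfa, the main hypoxia-inducible growth factor of vessels, had its promoter region at percentile 29.2 in the control list and 37.3 in the db/db list, with signals of 8.19 and 7.24, and its rank among partnered regions was 27.1 and 20.6. Vegfb was at 13.1 and 29.2 and Pgf, the placental growth factor, at 30.6 and 49.8. The stronger regions around Vegfb, at 78.9 and 81.3 in the control list, lie at the starts of its neighbours Fkbp2 and Dnajc4. Vegfc, a growth factor chiefly of lymphatic vessels, had the strongest promoter of the family by signal. Ranked by −log10 p, it was at 42.8 and 66.6, under Vegfa (84.2 and 87.1) and Pgf (54.1 and 71.8). The signal of the Vegfc promoter was 10.9 in the control list and 12.2 in the db/db list. Its rank among partnered regions was 50.5 and 62.1, 11.6 points higher in db/db cells. Of the 38 member promoter regions with 1 partner, 2 ranked at least 10 points higher in the db/db list, this one and an inner promoter of Angptl4, or 5.26% beside 7.06% over promoter regions of coding genes. Vegfa had a single db/db-only region, in an intron, at percentile 3.07.

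The angiopoietins were largely closed at their starts. Angpt1, an agonist of the TIE2 receptor, had no promoter region in either list. It carried instead the strongest db/db-only region of all members, in its first kilobases at chr15:42674808-42675177, with the summit 2006 bp inside the gene and 1778 bp from the nearest annotated start, a signal of 13.6 and percentile 80.3. Over coding genes, 93 of 9480 db/db regions at or above percentile 80 were absent from the control list (0.981%). Among members this was 1 of 16 (6.25%), the Angpt1 region, which was picked for its strength. A shared intronic region of Angpt1 also ranked higher, from 31.3 to 45.2 among partnered regions. Angpt2, the context-dependent antagonist, had no region in the control list and 2 in the db/db list, with a weak promoter region at percentile 13.0. Angptl4, a hypoxia-responsive inhibitor of lipoprotein lipase, had its main promoter at 39.0 and 46.3, and an inner promoter that went from 9.16 to 20.5 among partnered regions.

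Of the other ligands, Fgf2 had the most regions found in db/db cells alone. Fgf2, a heparin-binding growth factor, had 2 promoter regions in the control list, and both were shared. In the db/db list it had 5 further regions, 4 intronic and 1 downstream, the strongest at chr3:37360484-37361208 with percentile 50.7. The main promoter of Fgf2 was at 36.0 in the control list and 57.2 in the db/db list. Among partnered regions its rank was 33.8 and 40.7, a difference of 6.89 points. Pdgfa, a platelet-derived growth factor, had a broad and weak promoter region at 2.92 and 9.08, and Pdgfb, which recruits pericytes, had no region in either list. Ndp, the Norrin ligand of FZD4 that Müller cells supply to retinal vessels, had a strong shared region inside an exon, at 70.9 and 79.9, and at its promoter only a db/db-only region of percentile 1.64. Lrg1, a modulator of TGF-beta signalling in vessels, had no control region and 2 db/db-only regions, one of them at the start of its neighbour Plin5 at percentile 39.0.

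The TGF-beta and BMP ligands were also of middle to low rank by signal at their starts. Tgfb1 was at 21.6 and 27.5, Tgfb2 at 4.10 and 16.2, and Tgfb3 at 47.1 and 57.3, in the control and db/db lists in that order. Ranked by −log10 p, Tgfb1 was at 28.7 and 45.1, Tgfb2 at 44.3 and 66.9, and Tgfb3 at 84.1 and 88.1. Tgfb2, a TGF-beta isoform prominent in the eye, nevertheless had 7 control and 9 db/db regions, the strongest in an intron at 63.1 and 73.4. One weak intronic region of Tgfb2, chr1:186661228-186661760 at percentile 2.17, was found in the control list alone. Bmp4 had no promoter region in either list and 1 weak db/db-only intronic region, at percentile 9.15.

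The receptors held the most regions. Nrp1, a coreceptor for VEGF and class 3 semaphorins, had 11 regions in the control list and 17 in the db/db list, more than any other member. Its promoter was a single wide control region at percentile 9.37 that was split into 3 regions in the db/db list, the strongest at 25.1. The intronic region chr8:128498599-128499388 of Nrp1 went from 21.5 to 4.64 among partnered regions, a difference of −16.8. Nrp2 had 7 and 9 regions, and its exonic region at chr1:62795594-62795948 went from 87.8 to 74.0. Tgfbr1, the type I receptor of TGF-beta, had the one strong promoter of the angiogenic class by signal, at 91.8 and 93.1. Ranked by −log10 p, it was at 99.5 and 99.6. Vegfa (84.2 and 87.1) and Tgfb3 (84.1 and 88.1) also lay above the coding gene medians by that measure. Tgfbr1 had 2 db/db-only intronic regions, the stronger at chr4:47408631-47409144 with percentile 52.2. Tgfbr2 had its promoter at 26.6 and 30.6, a strong shared intronic region at 80.9 and 87.9, and 4 db/db-only regions between percentiles 8.34 and 20.3.

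The antiangiogenic genes had few open promoters in control cells. Serpinf1, which encodes PEDF, and Thbs1, which encodes thrombospondin 1, had no region at all in the control list and 1 promoter region each in the db/db list, at percentiles 23.7 and 32.4. Thbs2 had a single shared region 5′ of the gene, which went from 53.6 to 43.5 among partnered regions. Sema3a, a repulsive guidance cue that signals through Nrp1, had no promoter region in the control list, and in the db/db list had one at an inner start, chr5:13398836-13399673, with a signal of 11.8 and percentile 71.6. Its strongest region, in an intron, was shared, at 90.8 and 92.9, while another intronic region went from 40.4 to 21.6, a difference of −18.8. Sema3e, a ligand of plexin D1 that restrains vessel sprouting, was the one member of the class with a promoter in both lists, with signals of 9.39 and 9.92 and ranks of 37.8 and 44.3 among partnered regions. Sema3e held 8 control and 10 db/db regions, of which the intronic region chr5:14195137-14195730 was found in the control list alone, at percentile 22.3.

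**Figure D3:**
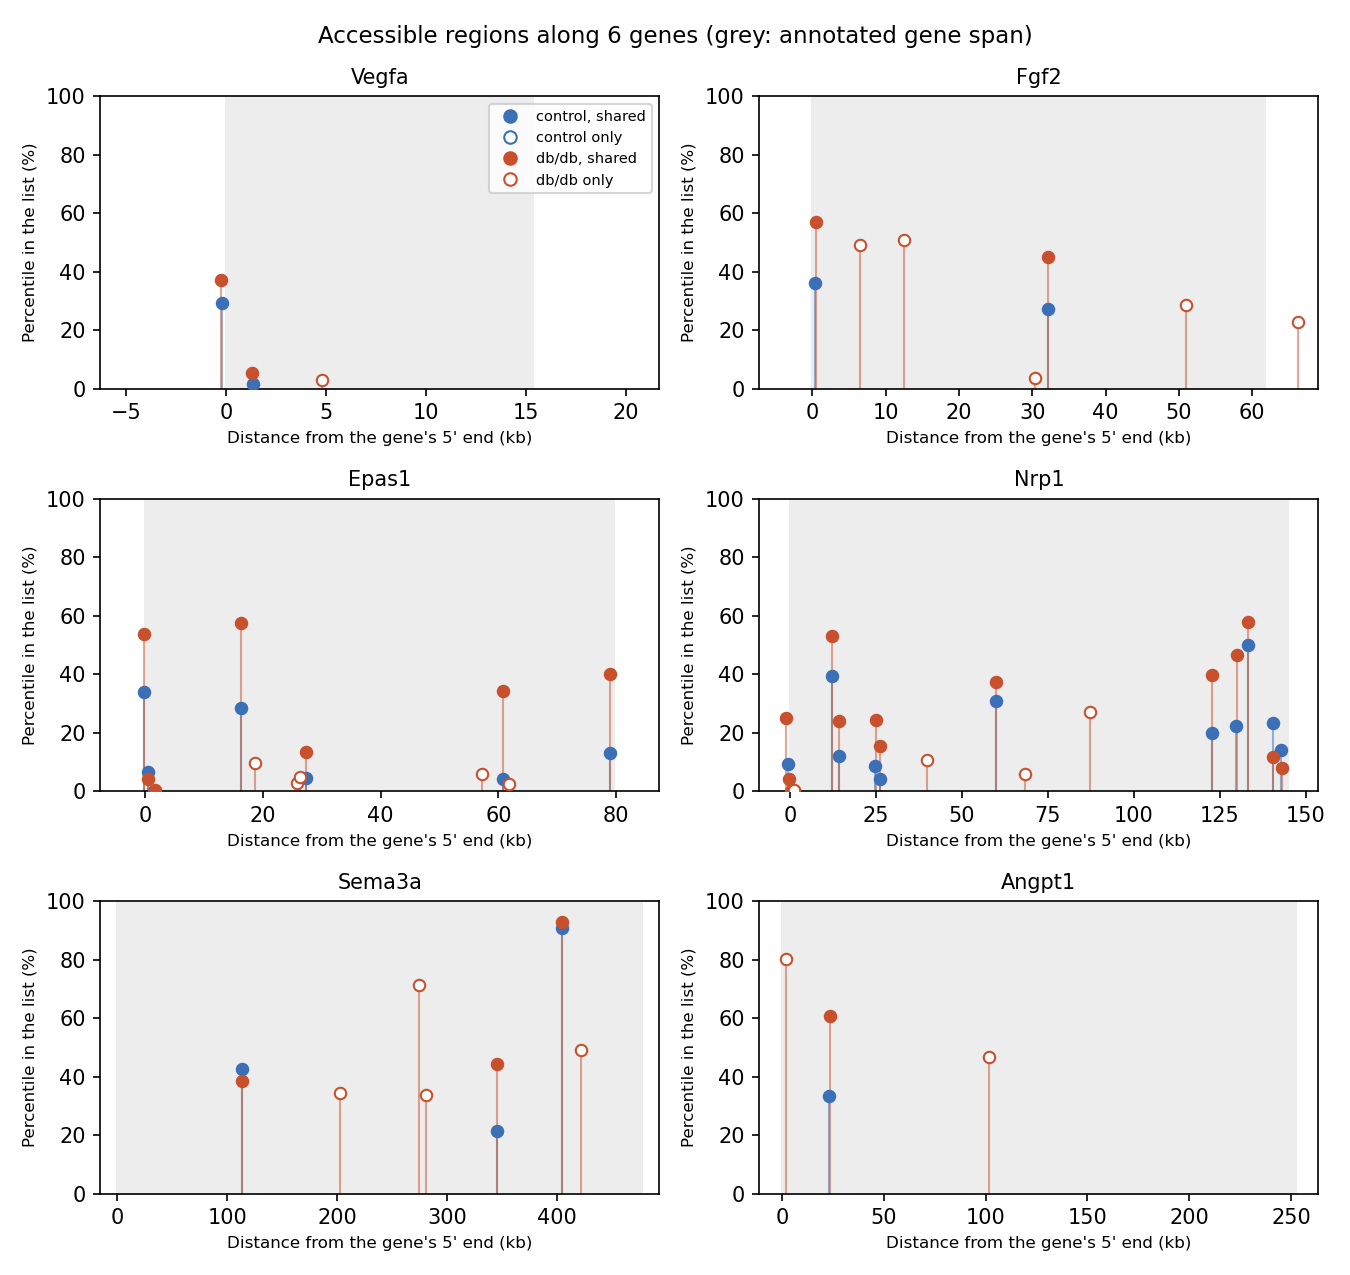
Accessible regions of Vegfa, Fgf2, Epas1, Nrp1, Sema3a and Angpt1, with the distance of the region's middle from the 5′ end of the gene on the x axis (kb) and the signal percentile in its list on the y axis (percent), in blue for the control list and red for the db/db list, filled where shared and open where found in 1 list. Open red points include the db/db-only regions of Angpt1 at percentile 80.3 and Sema3a at 71.6, and the 5 of Fgf2.

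Presence in 1 list alone was then counted over all members. Of the 95 control regions, 3 (3.16%, Wilson interval at 95% from 1.08% to 8.88%) were without a db/db counterpart, the intronic ones of Arnt2, Tgfb2 and Sema3e, against 3.91% of control regions of all coding genes. Of the 151 db/db regions, 56 had no counterpart in the control list (37.1%, 29.8% to 45.0%), against 29.1% over coding genes. From coding gene regions of the same kind (promoter or distal) and the same decile of signal, 38.3% would be db/db-only, close to the share counted. Of the 56 db/db-only regions, 10 were at promoters and 46 were distal. The intervals cover counting error only, and regions of the same gene are not independent.

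The db/db-only share differed by class. It was 10 of 45 regions for oxygen sensing genes (22.2%, 12.5% to 36.3%), 37 of 86 for angiogenic genes (43.0%, 33.1% to 53.6%) and 9 of 20 for antiangiogenic genes (45.0%, 25.8% to 65.8%). Coding genes with the same number of regions as the members had shares of 26.8%, 29.1% and 29.9% in that order. Weak and distal regions are more often found in 1 list, however, and angiogenic regions were weaker, so the shares were also set beside coding gene regions of the same kind (promoter or distal) and the same decile of signal. On that footing 30.8%, 44.2% and 29.7% would be db/db-only, which for the angiogenic class is close to what was counted. For the oxygen sensing class the value lies within the interval of the share counted, and so it does for the antiangiogenic class.

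At promoters the presence in the db/db list alone was most frequent in the antiangiogenic class. In all, 5 members had a promoter region in the db/db list and none in the control list, namely Angpt2, Ndp, Serpinf1, Thbs1 and Sema3a, or 12.5% of the 40, while 3.44% of coding genes did. None was an oxygen sensing gene, 2 were angiogenic and 3 were antiangiogenic. No member had a promoter region in the control list alone. A promoter region was absent from both lists at Adm, Angpt1, Pdgfb, Lrg1, Bmp4 and Thbs2. Weak signal was shared by most of the promoter regions found in the db/db list alone, 4 of which ranked at or below percentile 32.4, where one-list regions are frequent. The counts also depended on the width taken. Within 2 kb of a start, 38 members had a promoter region in the db/db list and 29 in the control list. Over the 21938 coding genes, 14109 and 13404 had one at that width. For oxygen sensing genes these numbers were 15 and 14, and for angiogenic genes 19 and 14.

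**Figure D4:**
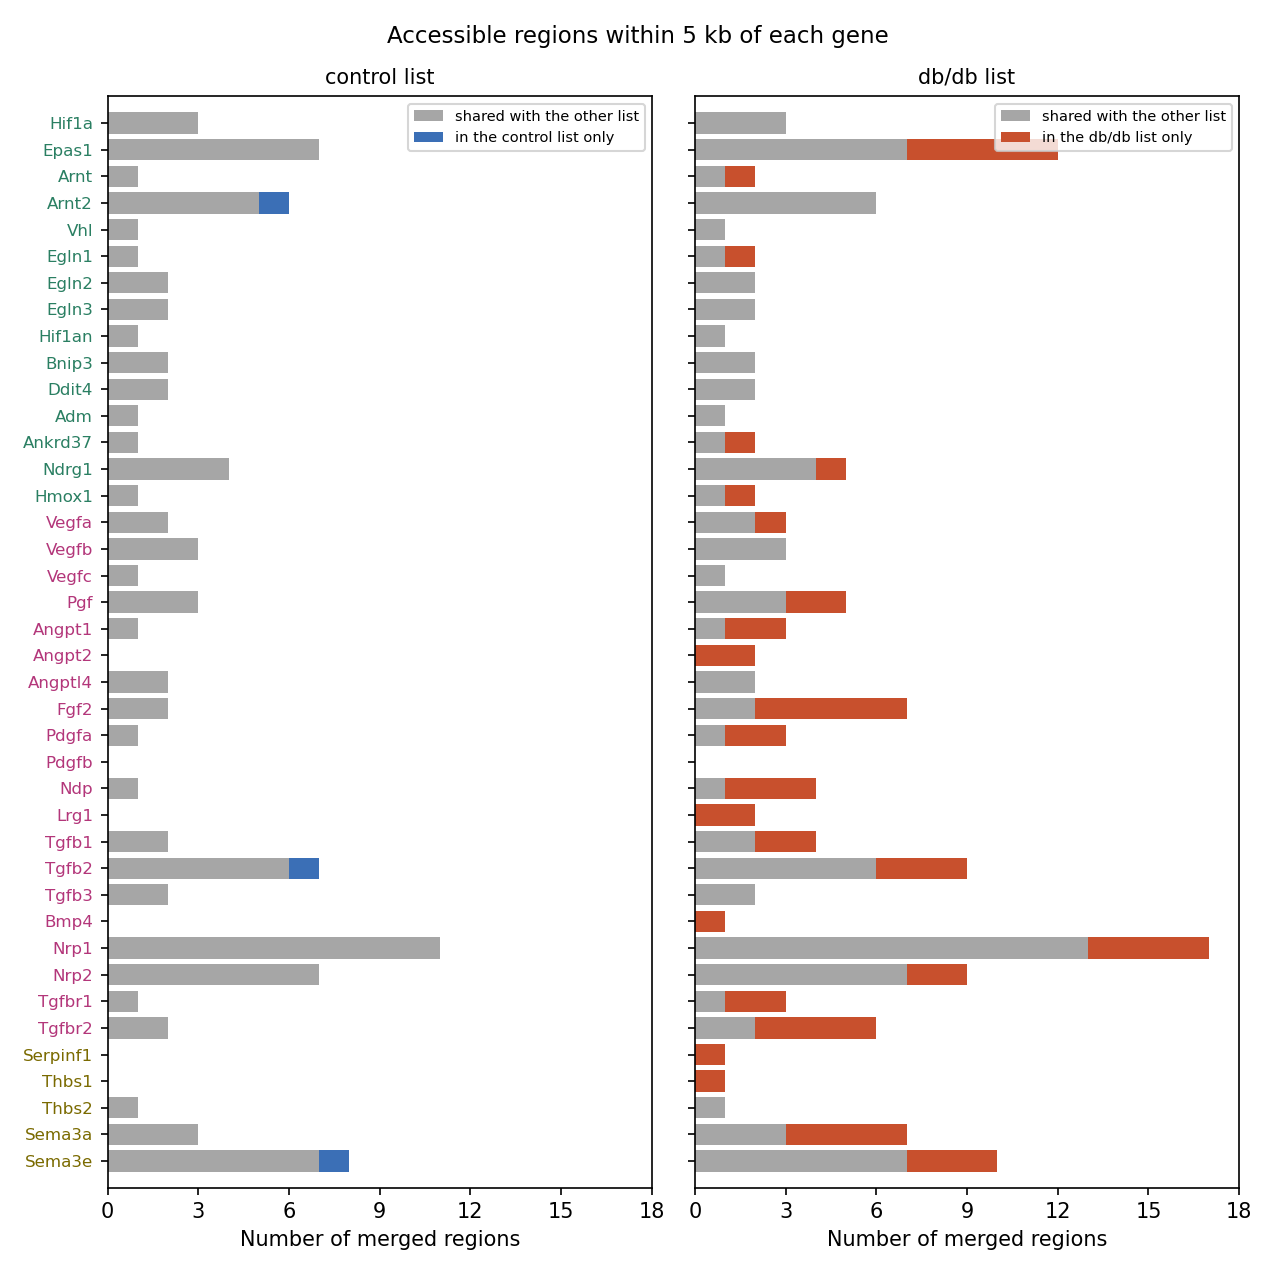
Number of merged accessible regions (x axis) within 5 kb of each of the 40 genes (y axis, name coloured by class as in the plot of promoter percentiles) in the control list (left) and the db/db list (right), in grey where shared with the other list and in colour where found in 1 list. The control list has 3 unshared regions, at Arnt2, Tgfb2 and Sema3e, and the db/db list has 56.

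Over all 90 member regions with 1 partner, ranks shifted little as a group. In the db/db list 51 ranked higher and 39 lower, with a median difference of 0.24 points (95% interval −1.11 to 1.42), beside a median of −0.08 over the 30951 such regions of coding genes. At least 10 points higher were 9 member regions (10.0%) and at least 10 points lower were 9 (10.0%), against 12.1% and 12.4% over coding genes. The standard deviation of the differences was 7.81 points for members and 10.3 for coding genes. The medians by class were 0.13 for 33 oxygen sensing regions, 0.24 for 46 angiogenic regions and 3.84 for 11 antiangiogenic regions, each with an interval that includes 0. With each gene counted once the antiangiogenic median was −0.81, and ranked by −log10 p the angiogenic median was 2.43.

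**Figure D5:**
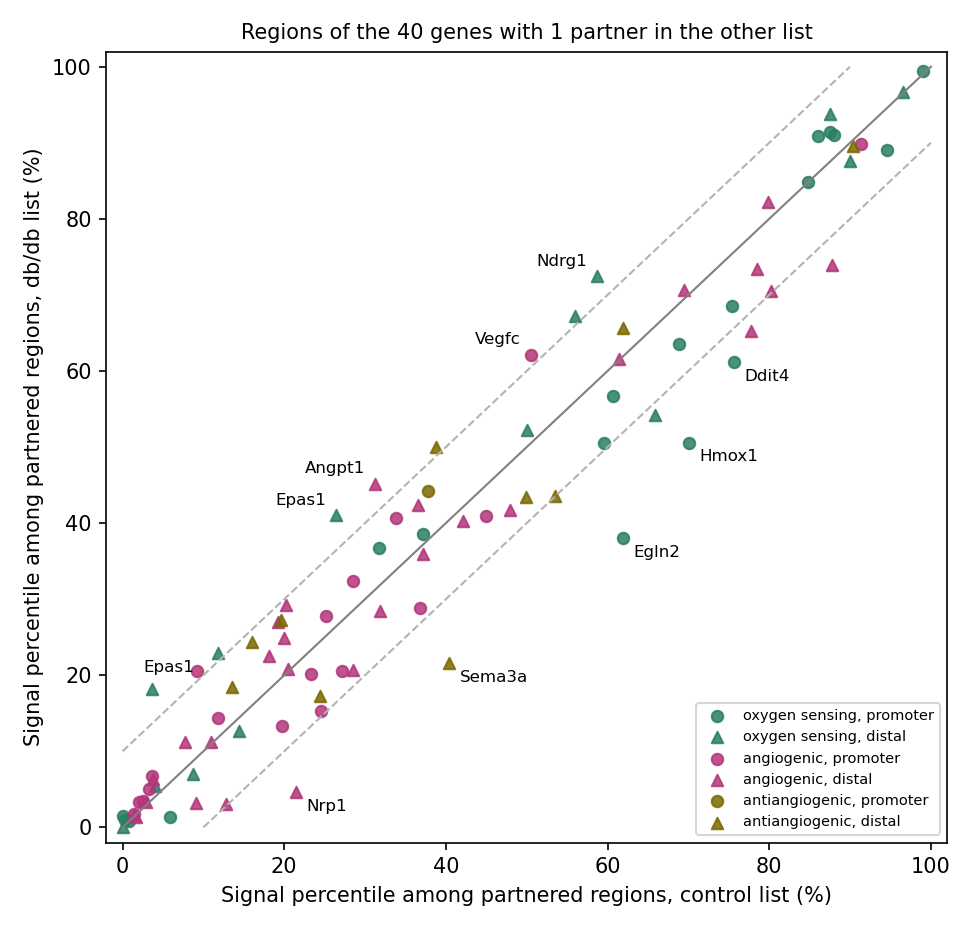
Signal percentile among partnered regions in the control list (x axis, percent) and in the db/db list (y axis, percent) for the 90 member regions with 1 partner, coloured by class, with circles for promoters and triangles for distal regions. The solid line marks equal rank and the dashed lines a difference of 10 points, outside which 9 regions lie above and 9 below, with the 5 largest in each direction named.

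Genes of the same pathways that are not members were counted in the same way. Of 20 other receptors, among them Flt1, Kdr and Tek, 17 had an accessible promoter in each list, with a median percentile of 43.1 in the control list and 60.0 in the db/db list. The exceptions in both lists were Tie1, Eng and Acvrl1, of which Tie1 had no region at all. By median, the other receptors ranked above the angiogenic members (27.9 and 33.7) and below coding genes (78.0 and 80.7). At these receptors 80 of 240 db/db regions (33.3%, against 29.1% over coding genes) were absent from the control list. Of their 168 control regions, 7 (4.17%, against 3.91% over coding genes) were absent from the db/db list. Fgfr2, whose annotated span is 2960.9 kb, held 144 of the db/db and 103 of the control regions, with 49 and 7 of those absent from the other list. Without Fgfr2 the counts were 31 of 96 (32.3%) and 0 of 65. Of 20 other hypoxia-induced genes, mainly of glycolysis, 19 had an accessible promoter in the control list and 20 in the db/db list. The exception was Car9, carbonic anhydrase 9, which had no region in the control list. The medians of these 20 genes were 78.6 and 81.6. Of their 73 db/db regions, 12 (16.4%) were found in that list alone, against 29.1% over coding genes. The lists share 4 genes between the receptors and the endothelial and pericyte markers.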

How the data were processed

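The data were ATAC-seq peak lists of sorted Müller cells, 1 list per genotype (control or db/db), from mice aged 6 months. RNA-seq samples and the second ATAC-seq replicates were not analysed here. The labels name mm10 as genome build and paired reads of 50 bases. The peak caller, its threshold and whether replicates were pooled are not given in the sources used here. Each deposited peak carries a score of 540 to 1000. The signal deposited by the authors is a ratio, the fold enrichment. The deposited significance is the −log10 of a p-value and of a q-value. What these values were scaled to is not given in the sources used here, so they were used only to rank peaks within a list, and read depth is unknown. The study's own test of differential accessibility with csaw was not repeated.

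Overlapping rows of a list were merged, with the values of the row of highest signal. Genes and transcription starts came from GENCODE M21 (GRCm38). A region counted as shared if at least 1 bp overlapped a region of the other list. Intervals at 95% are Wilson intervals for shares, and medians have binomial order-statistic intervals, which cover counting error only. Comparison shares are those of coding genes with the same number of regions (strata of at least 50 genes, members left out), or of coding gene regions of the same decile of signal and kind. No test was made between genotypes. Promoter windows came from RefSeq. Python 3.11.15, numpy 2.4.6, pandas 2.3.3, scipy 1.17.1 and matplotlib 3.10.9 were used, and the steps were tested on simulated data.

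All 40 members are accounted for. Values by region are given for members without regions in a list, for members with a control-only region, for the 5 strongest one-list regions in each list, for the 5 largest differences in each direction and for the strongest promoter of each role. Regions outside this rule were chosen after their values were seen. Of other pathway genes, those without a promoter region are named. The members, the classes and the gene lists were chosen with earlier results of these data known. Alternatives were 50% overlap, a stricter q value, lists of equal numbers, other spans and promoter widths, autosomes only, equal weight per gene, the percentile of −log10 p, unmerged rows and ACGTG alone.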

Additional observations from a re-analysis of the deposited data

How the results depend on the processing

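With 1 list per genotype, differences cannot be told apart from differences in depth, peak calling or the animals used. Lists of equal numbers, made by removing the db/db regions of lowest −log10 p, changed the one-list shares most: the control-only share of members became 13.7% (12.1% over coding genes) and the db/db-only share 15.3% (11.6% over coding genes), with 5.71% for oxygen sensing, 19.2% for angiogenic and 27.3% for antiangiogenic genes. The antiangiogenic control-only share, of few regions, became 33.3%. Ranking by −log10 p moved the median of the strongest promoter to 52.4 (control list) and 66.6 (db/db list) for angiogenic genes and to 63.6 (control list, 1 gene) for antiangiogenic genes. Without merging, members had 179 control and 272 db/db peaks. With ACGTG alone, 36.1% of member windows held a HIF core, with 53.8% for oxygen sensing and 21.1% for angiogenic genes (21.1% over coding genes). Added after seeing the data, percentiles in the whole list gave a median difference of 7.50 points for members (7.94 over coding genes), and leaving out Nrp1, the gene with most regions, left the shares and the median difference within the spread. Leaving out Fgfr2 from the other receptors was also added then. Of 180 alternative values of 40 results, 155 were classed as the same as the main value and 25 as moved. Shares and medians were judged by whether they lay within the interval of the main value. Counts have no interval and were judged by a fixed ratio to the main value. In 3 of the alternative values the sign differed from the main value, each a median difference in rank. They were −0.36 for angiogenic genes with lists of equal numbers, and −0.13 for oxygen sensing and −0.81 for antiangiogenic genes with each gene counted once. No paired analysis was possible because each genotype is represented by 1 list.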
